A study of Mus musculus with 8 samples.

Results

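Between neighbouring peaks of open chromatin in unstimulated mouse dendritic cells lay 333 stretches of 1 Mb or more in which neither replicate had a peak, and these are the regions described here. They were found by joining the peaks of both ATAC-seq replicates into one set of 61867 regions on the 19 autosomes and keeping the 333 longest of the 61840 intervals between consecutive regions, 0.538% of them. In ATAC-seq a transposase inserts sequencing adapters into nuclear DNA that is not shielded, so that reads pile up where chromatin is open. The series has 8 samples in 4 groups of 2. All are CD8-positive dendritic cells, which the labels name both as splenic cells and as a cell line. ATAC-seq was done on cells left unstimulated. The other 3 groups are ChIP-seq of IRF3 after poly(I:C), of IRF5 after CpG oligonucleotide and of IRF9 after IFN-beta, each after 90 min, and were not analysed here. No genotype, strain, age or number of animals is given, and nothing in the labels says that the replicates came from separate cultures. The stretches were chosen by the positions of the peaks themselves, so the absence of peaks, the lengths and the flanking peaks are descriptions with no test.

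Long DNA without accessible sites is familiar in mammalian genomes. It includes gene deserts, which hold few or no coding genes, and arrays of duplicated genes such as those of olfactory and pheromone receptors, which are silent outside their own sensory cells. It also includes the surroundings of genes for development and for the nervous system, whose regulatory DNA is spread widely and is used in other tissues. Interferon-stimulated genes are the targets of IRF3 and of the IRF9-containing complex ISGF3. Rsad2 encodes viperin, an antiviral radical-SAM enzyme, and its divergent neighbour Cmpk2 encodes a mitochondrial nucleotide kinase that is induced with it.

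The promoters of the 4 interferon-stimulated genes found in the stretches are printed because these are the immune genes the description turns on. Each run is 300 bases from the RefSeq table of the build GRCm38.p6, written 5′ to 3′ on the gene's strand. It takes 250 bases before and 50 after the start site used in that table. For Cmpk2 that site lies inside the gene, whose left end is chr12:26469117, so the window is not set on its outermost end. Capitals mark a pair of GAAA half-sites spaced by a pair of bases (GAAANNGAAA on either strand), the core letters of the interferon-stimulated response element. Rsad2 lies at chr12:26456403-26456702 (minus strand), Cmpk2 at chr12:26468965-26469264 (plus strand), Ifi44 at chr3:151749861-151750160 (minus strand) and Ifi44l at chr3:151762842-151763141 (minus strand).
Rsad2: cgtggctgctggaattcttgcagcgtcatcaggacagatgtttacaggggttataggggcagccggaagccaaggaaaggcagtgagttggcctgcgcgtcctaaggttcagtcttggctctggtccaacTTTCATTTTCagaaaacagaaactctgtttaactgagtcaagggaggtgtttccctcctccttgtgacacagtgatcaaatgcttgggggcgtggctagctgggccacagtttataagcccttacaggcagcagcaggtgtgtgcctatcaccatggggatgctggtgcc
Cmpk2: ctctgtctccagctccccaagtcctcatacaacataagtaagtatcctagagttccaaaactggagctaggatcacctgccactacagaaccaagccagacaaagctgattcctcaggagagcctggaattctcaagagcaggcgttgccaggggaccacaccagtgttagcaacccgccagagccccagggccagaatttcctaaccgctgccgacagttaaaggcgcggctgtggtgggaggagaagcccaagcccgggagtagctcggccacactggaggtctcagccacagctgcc
Ifi44: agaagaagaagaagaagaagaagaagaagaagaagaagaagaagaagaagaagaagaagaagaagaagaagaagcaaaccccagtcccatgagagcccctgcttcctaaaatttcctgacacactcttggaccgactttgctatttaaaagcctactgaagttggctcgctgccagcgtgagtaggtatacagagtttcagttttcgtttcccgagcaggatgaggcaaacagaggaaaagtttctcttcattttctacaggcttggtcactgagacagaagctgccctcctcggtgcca
Ifi44l: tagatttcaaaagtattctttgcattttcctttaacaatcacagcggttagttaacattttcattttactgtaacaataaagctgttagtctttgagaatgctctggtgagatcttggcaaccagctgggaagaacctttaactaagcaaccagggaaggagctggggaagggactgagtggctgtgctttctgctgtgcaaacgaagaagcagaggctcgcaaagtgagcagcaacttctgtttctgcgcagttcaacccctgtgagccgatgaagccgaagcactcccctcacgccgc
The Rsad2 promoter held 1 such pair and the other 3 promoters held 0. The same letters occurred in 4.14% of the promoters of genes inside stretches and in 3.42% of all autosomal promoters in the table. Windows without them may hold other binding letters.

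The promoter of Sox11, a transcription factor of neuronal development, lies in the same stretch as Rsad2 and is printed for contrast with each CG in capitals (chr12:27342669-27342968, minus strand). The promoters of the pheromone receptors Vmn1r91 (chr7:20100908-20101207, plus strand) and Vmn1r95 (chr7:20193460-20193759, plus strand) show how alike a pair from a duplicated array can be. Families differed in how often promoters were copied, as described below. They come from the stretch with the most genes, and capitals mark the bases at which they differ from each other.
Sox11: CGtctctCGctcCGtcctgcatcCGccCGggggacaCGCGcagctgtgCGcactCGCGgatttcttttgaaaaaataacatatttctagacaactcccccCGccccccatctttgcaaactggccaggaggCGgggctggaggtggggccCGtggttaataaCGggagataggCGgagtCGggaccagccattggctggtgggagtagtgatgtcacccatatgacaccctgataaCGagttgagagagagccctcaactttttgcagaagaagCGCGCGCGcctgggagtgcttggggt
Vmn1r91: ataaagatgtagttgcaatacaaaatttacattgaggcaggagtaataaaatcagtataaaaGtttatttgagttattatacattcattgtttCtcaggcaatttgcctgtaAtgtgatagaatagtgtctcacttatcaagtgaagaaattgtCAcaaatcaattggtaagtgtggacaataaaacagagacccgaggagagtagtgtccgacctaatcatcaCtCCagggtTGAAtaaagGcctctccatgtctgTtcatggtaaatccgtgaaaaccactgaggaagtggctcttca
Vmn1r95: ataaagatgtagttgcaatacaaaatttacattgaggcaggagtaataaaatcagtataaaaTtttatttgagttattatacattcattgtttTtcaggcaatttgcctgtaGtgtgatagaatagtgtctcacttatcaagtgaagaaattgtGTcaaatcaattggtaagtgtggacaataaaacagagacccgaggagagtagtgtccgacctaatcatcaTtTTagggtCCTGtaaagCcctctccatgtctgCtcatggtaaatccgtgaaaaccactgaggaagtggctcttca
Sox11 carried 21 CG and a CpG observed/expected ratio of 0.817, against 0.291 for Rsad2 and 0.331 for Cmpk2. The promoter of Rnf144a, the other coding gene wholly inside the Rsad2 stretch, was also rich in CG, with 25 CG and a ratio of 0.744. This ratio compares the number of CG with that expected from the C and G content, and is high in CpG islands. The Vmn1r91 and Vmn1r95 windows differed at 14 of 300 bases.

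The 333 stretches added up to 542 Mb, 22.6% of the 2399 Mb between the first and last region of the autosomes. Their median length was 1.40 Mb with quartiles of 1.15 and 1.90 Mb, whereas the median interval between regions was 8.19 kb. Of these stretches, 69 reached 2 Mb and 14 reached 3 Mb. The intervals just under the limit measured 0.994, 0.996 and 0.999 Mb, and those just over it 1.0, 1.001112 and 1.001569 Mb. The shortest stretch, chr4:22657798-23657797, held no coding gene. The next, chr7:5126085-6127196, held 14 coding genes, 11 of them pheromone receptors of the Vmn1r family, and chr15:93519088-94520656 held the protease gene Adamts20 alone.

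**Figure D1:**
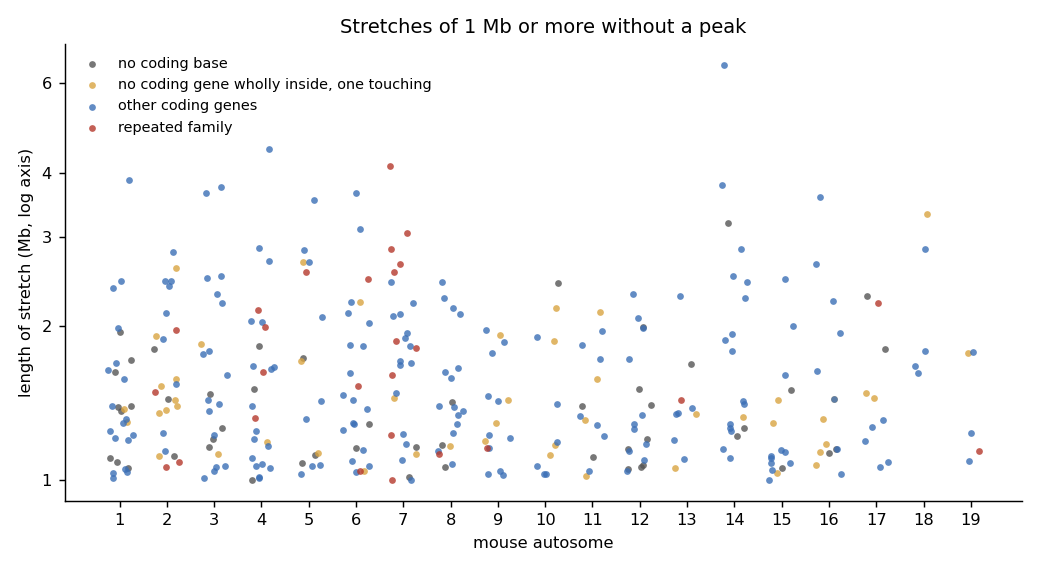
Each point is one of the 333 stretches, placed by its autosome (horizontal, with a small sideways scatter) and its length in Mb (vertical, log axis), and coloured by what it holds. The longest, at 6.51 Mb, is on chromosome 14, and the stretches with a repeated gene family (red) are most frequent on chromosome 7.

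Stretches were unevenly spread over the chromosomes. They took 37.3% of chromosome 7 (29 stretches, 385 coding genes) and 35.4% of chromosome 14 (20 stretches, 38 coding genes). They took 12.1% of chromosome 19 and 12.1% of chromosome 13. Chromosomes 7 and 14 had similar shares of their length in stretches and unlike numbers of genes in them.

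Of the 10 longest stretches, 9 held 1 to 3 coding genes. The longest, chr14:79684076-86198981, was 6.51 Mb and held the protocadherins Pcdh8 and Pcdh17, which are neuronal adhesion proteins, and Olfm4, a secreted glycoprotein of gut stem cells. It was followed by chr4:35362506-39811746 (4.45 Mb) with Lingo2, a leucine-rich repeat protein of neurons, and the predicted gene 1700009N14Rik. The third in length, chr7:19956745-24081705 (4.12 Mb), was the only 1 of the 10 that held a gene array, with 106 coding genes. The other 7 measured 3.54 to 3.87 Mb, and 6 of them are described here. On chr1:26907699-30780460 this was Gm597. On chr14:37135523-40917797 they were Nrg3, which encodes a neuregulin growth factor, Gm31606 and Sh2d4b. On chr3:70581181-74331399 they were Sis, the gut enzyme sucrase-isomaltase, Slitrk3, a synaptic adhesion protein, and Bche, butyrylcholinesterase. On chr3:10736957-14381823 it was Ralyl, on chr16:66086752-69667874 the synaptic adhesion gene Cadm2, and on chr5:48372637-51908953 the potassium channel partner Kcnip4 with the adhesion receptor Adgra3.

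The peaks at the edges were often weak. Each peak's fold enrichment is the authors' value for reads at its summit against the local background, and the number of reads at the summit was recovered from that fold and the deposited p. Of the 666 flanks, 384 (57.7%) were regions of both replicates, against 70.4% of all regions. A further 250 were called in replicate 2 alone and 32 in replicate 1 alone. Both flanks were regions of both replicates at 109 stretches, 1 flank was at 166, and neither was at 58. Flanking peaks had a median of 13 reads in replicate 1 and 18 in replicate 2, against 17 and 22 over all peaks. At their summits the median fold enrichment over background was 7.76 (replicate 1) and 7.89 (replicate 2), against 7.0 and 6.88 over all peaks, so the flanks had fewer reads with no lower fold. Of the 647 distinct flanking regions, 13.0% lay within 1 kb of an end of a coding gene, against 26.1% of all regions. At the longest stretch the left flank was chr14:79683915-79684075, listed in replicate 2 alone (fold enrichment 4.39, 9 reads), and the right flank was chr14:86198982-86199139, among the stronger peaks (23.8 with 39 reads in replicate 1 and 24.1 with 54 reads in replicate 2). At the second longest they were chr4:35362350-35362505 (7.88 with 14 reads and 8.12 with 21) and chr4:39811747-39812027 (6.59 with 14 reads, replicate 2 alone).

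Some stretches were separated by a single region. There were 19 such regions between neighbouring stretches, 11 of them found in both replicates and 5 in a coding gene. The region chr14:94542022-94542359 lay between stretches of 2.44 and 2.84 Mb, which hold the neuronal genes Pcdh9 and Klhl1. Reads there stood 12.3-fold over background in replicate 1 (20 reads) and 15.6-fold in replicate 2 (43 reads). The region chr6:79818252-79818368 between stretches of 2.48 and 1.62 Mb had 21.5 (35 reads) and 20.6 (46 reads). A region at chr2:87017397-87017607 separated a pair of olfactory receptor arrays of 1.06 and 1.97 Mb, with 5.97 (9 reads) and 10.5 (23 reads).

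The replicate that did not draw the stretches gave a readout that the choice had not used. Stretches drawn on replicate 2 alone numbered 336 and covered 549 Mb. In them replicate 1 had 37 peaks, or 0.0674 per Mb, against 27.0 per Mb elsewhere on the autosomes. Of these 336 stretches, 302 (89.9%) held 0 peaks of replicate 1, 31 held 1 and 3 held 2. Stretches drawn on replicate 1 alone numbered 400 and covered 683 Mb. In them replicate 2 had 544 peaks, or 0.797 per Mb, against 33.0 per Mb elsewhere. Of these 400, 131 (32.75%) held 0 peaks of replicate 2, 128 held 1, 64 held 2 and 77 held 3 or more, with 7 at most. The peaks found inside had fewer reads than those elsewhere, with medians of 9 against 17 in replicate 1 and 13 against 22 in replicate 2. Replicate 2 had the longer list, with 58319 peaks against 50950, and more reads per summit. With 1 library on each side no test of these densities was made. A stretch without a peak is one without a peak detectable at this depth and threshold.

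**Figure D2:**
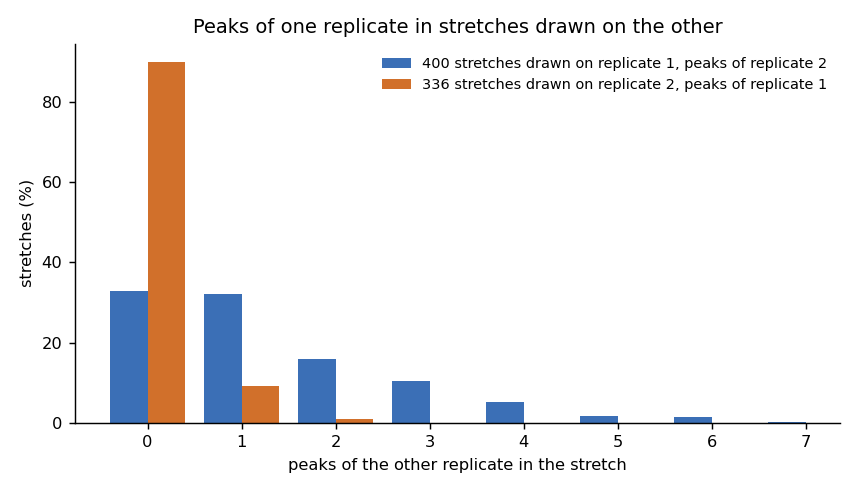
Bars give the percentage of stretches (vertical) by the number of peaks of the replicate that did not draw them (horizontal), for 400 stretches drawn on replicate 1 (blue) and 336 drawn on replicate 2 (orange). Peaks of replicate 1 were missing from 89.9% of the orange stretches, while peaks of replicate 2 were missing from 32.75% of the blue ones.

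Of the 20661 coding genes of the autosomes, 1265 (6.12%) lay wholly inside a stretch. That share is the background for every family and list below. The density was 2.33 coding genes per Mb inside and 10.4 per Mb in the rest. The genes were unevenly shared, with 808 of the 1265 in 28 stretches of 10 or more, a median of 1 per stretch, and 95 stretches with 1 coding gene. By content the stretches fell into 4 kinds. The 27 with at least 3 members of a family of duplicated genes held 777 coding genes in 50.1 Mb, or 15.5 per Mb. The 207 with other coding genes held 488 in 348 Mb, or 1.40 per Mb. Families were assigned by gene symbol, so runs of predicted genes fell in this kind, such as the 7 in chr10:103669623-104698674. The stretch with the T cell receptor alpha V segments, described below, fell in it too. In 49 stretches (73.6 Mb) no coding gene lay wholly inside but 1 (in 39 of them) or 2 (in 10) reached in. The last 50 stretches (70.4 Mb) had no coding base. Intervals of 0.5 to 1 Mb, just below the limit, numbered 502 and held 1223 coding genes at 3.49 per Mb.

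Rsad2 and Cmpk2 lay in a stretch of 2.31 Mb, chr12:26235875-28547049, which ranked 44 by length. It held 24 genes of all types, of which 4 were coding and 16 were long non-coding. In order of position the coding genes were Rnf144a (chr12:26306794-26415319), an E3 ubiquitin ligase, Rsad2 (chr12:26442743-26456452), Cmpk2 (chr12:26469117-26479837) and Sox11 (chr12:27334268-27342718). Dcdc2c, a doublecortin-domain gene, crossed the right edge. Rsad2 was 207 kb and Cmpk2 233 kb from the left edge, and Rnf144a was 70.9 kb from it. Sox11 was 1098 kb from the left edge and 1204 kb from the right edge.

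Each edge of this stretch was a peak of 1 replicate. The left one, chr12:26235769-26235874, was listed by replicate 2, at 6.15-fold enrichment and 13 reads, and not by replicate 1. The right one, chr12:28547050-28547117, was listed in replicate 1 with 4.59 and 7 reads, the fewest of any listed summit there, and not in replicate 2. Further left lay chr12:26184829-26184969, listed in replicate 2 alone (6.59, 14 reads), and chr12:26071723-26071802, listed in replicate 1 alone (7.16, 11 reads). The nearest region of both replicates was chr12:25905746-25905916, 537 kb from Rsad2, with 10.7 (17 reads) in replicate 1 and 10.5 (23 reads) in replicate 2. On the right the nearest was chr12:28589478-28589669, with 5.77 (9 reads) and 7.99 (18 reads). Within 1 Mb beyond the left edge replicate 1 had 30 peaks and replicate 2 had 37, and within 1 Mb beyond the right edge they had 17 and 23. Outside such stretches the autosomes had about 27.0 peaks per Mb in replicate 1 and 33.0 in replicate 2. Over the whole 1 Mb the left side was thus somewhat above that density and the right side below it. The peaks on the left were unevenly placed, however. Most of them lay before chr12:25529702 in both replicates, and few lay in the DNA next to the stretch. The peaks at the very edges were weak and not shared. Counted between regions of both replicates it was 2.68 Mb long.

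**Figure D3:**
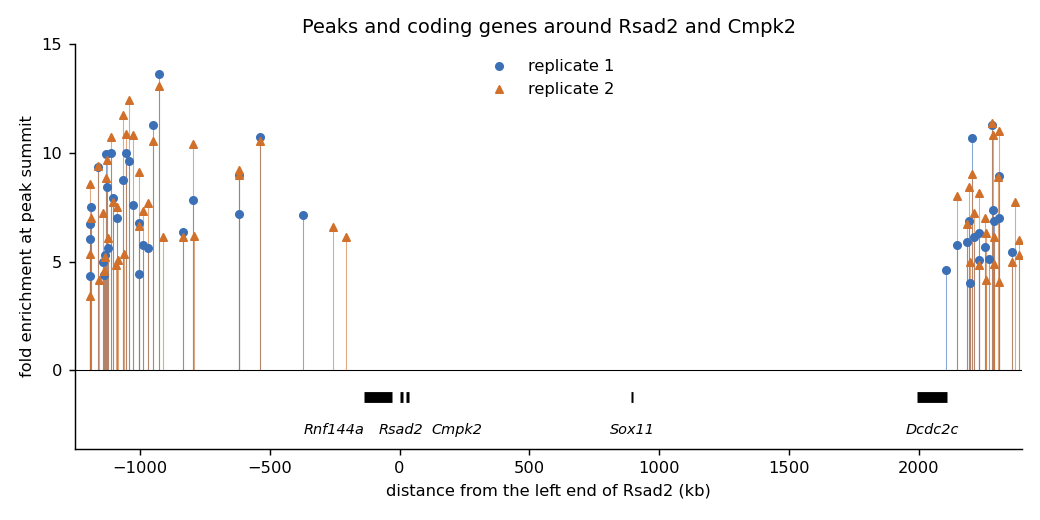
Each marker is a peak around Rsad2, placed by its distance in kb from the left end of Rsad2 (horizontal) and its fold enrichment at the summit (vertical), in replicate 1 (blue circles) and replicate 2 (orange triangles). Black bars below are the coding genes in or touching the stretch. No marker stands between the left edge, 207 kb before Rsad2, and the right edge.

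Ifi44 and Ifi44l, a pair of neighbouring interferon-stimulated genes, lay in a stretch of 2.49 Mb, chr3:149624140-152111182, with Adgrl4, an endothelial adhesion receptor, and Ptgfr, the prostaglandin F receptor. Ifi44 (chr3:151730922-151749910) was 361 kb and Ifi44l (chr3:151758737-151762891) 348 kb from the right edge. The right flank, chr3:152111183-152111271, was listed in replicate 2 alone (6.34, 15 reads). The left flank, chr3:149623914-149624139, was found in both (8.33 with 13 reads and 10.8 with 25 reads).

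These were 4 of the 59 listed interferon-stimulated genes on autosomes, or 6.78%, near the 6.12% of all coding genes. A region of both replicates lay within 1 kb of an end of 43 of the 59 (72.9%), where it did so for 48.9% of all coding genes. Stat2, Irf9, Ifih1 and Usp18 were among those with a peak at an end of the gene. Beyond the stretches the listed genes farthest from any peak were Iigp1 at 69.8 kb, Oas1a at 21.4 kb and Rtp4 at 14.1 kb. The 4 genes in stretches were thus 206.9 to 361 kb from a peak in a list where most were within 1 kb. The list was drawn up with earlier results of these data known, and its counts are descriptions.

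Of 127 further listed immune genes 3 lay in a stretch (2.36%, against 6.12% of all coding genes), and all are transcription factors of lymphocytes. Bcl11b (chr12:107910403-108004145), needed for T cell commitment, lay in a stretch of 2.08 Mb, chr12:106073433-108149931, 146 kb from its right edge. Both flanks were listed in replicate 2 alone, chr12:106073329-106073432 with 8.50 (19 reads) and chr12:108149932-108150005 with 4.67 (10 reads). Satb1 (chr17:51736187-51833290), a chromatin organiser of thymocytes, was alone in chr17:51477778-52560084 (1.08 Mb), 258 kb from the left edge, where the peak chr17:51477362-51477777 had 11.6 (24 reads) and 12.1 (38 reads). Ikzf2 (chr1:69531207-69687351), which encodes the regulatory T cell factor Helios, lay 74.3 kb from the left edge of chr1:69456879-70855927 (1.40 Mb). Its left flank chr1:69456771-69456878 had 8.95 (14 reads) and 9.66 (21 reads). No member of the interferon genes (0 of 23), the Klr receptors of natural killer cells (0 of 29), the Clec lectins (0 of 33), the interleukins and their receptors (0 of 78) or the chemokines and their receptors (0 of 58) lay in a stretch.

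Other genes of immune function were picked out after the positions were seen. The receptor gene Tgfbr2 (chr9:116087695-116175363) lay in chr9:116059322-118030301 (1.97 Mb), 28.4 kb from the left edge. The complement genes C8a and C8b lay in chr4:103322143-104993190 (1.67 Mb), at 117 and 189 kb from the right edge. Pglyrp3 and Pglyrp4, peptidoglycan recognition proteins, shared chr3:90710355-92118075 (1.41 Mb). Tnfrsf11b, the decoy receptor osteoprotegerin, lay 260 kb from the left edge of chr15:53990256-55071898 (1.08 Mb). Some genes counted as inside were next to a flanking peak. Cd55, a complement regulator, was 10.1 kb from the right edge of chr1:128832834-130475098, Cd96, a receptor of T and natural killer cells, was 12.8 kb from the left edge of chr16:46022821-47966528, and the microRNA gene Mir17 was 1.13 kb from the left edge of chr14:115042542-116975213. For these the nearest peak was close to the gene although a stretch of over 1 Mb began there.

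The variable (V) segments of antigen receptors are kept apart from coding genes in the annotation. Of the 130 V genes of the T cell receptor alpha locus, 127 (97.7%) lay in 1 stretch, chr14:52451433-53881488 (1.43 Mb). They were 113 V segments and 14 V pseudogenes. None of the 183 V genes of the immunoglobulin heavy chain locus, the 162 of the kappa locus or the 35 of the T cell receptor beta locus lay in a stretch. The left flank of the alpha stretch, chr14:52451228-52451432, was found in both replicates (7.16 with 11 reads and 6.59 with 14 reads). The right flank, chr14:53881489-53881562, was listed in replicate 2 alone (5.71, 12 reads).

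Arrays of chemosensory receptors supplied the largest numbers. Families of duplicated genes made up 713 of the 1265 coding genes inside (56.4%), against 12.7% of all coding genes. In the peak-free intervals of 0.5 to 1 Mb they made up 498 of 1223 (40.7%). The high share was thus not particular to stretches above the limit. Olfactory receptors numbered 275 of 1104 (24.9%), in 9 stretches. The largest group, 85, lay in chr2:87017608-88984624, which opens with Olfr1104, Olfr1105 and Olfr1106. The 53 genes of its neighbour chr2:85958942-87017396 were all olfactory receptors. Vomeronasal type 1 receptors, which detect pheromones, numbered 109 of 230 (47.4%), with 86 in chr7:19956745-24081705 beginning with Vmn1r91, Vmn1r240 and Vmn1r93. Vomeronasal type 2 receptors numbered 40 of 122 (32.8%), with 22 in chr7:7299582-10139068, beginning with Vmn2r30, Vmn2r31 and Vmn2r32. Bitter taste receptors numbered 8 of 35 (22.9%), with Tas2r130, Tas2r107 and Tas2r106 among 6 in chr6:131419927-132463723. Of 20 Mas-related receptors, which sense itch and pain, 15 (75%) lay in chr7:47146598-48749337, from Mrgpra9, Mrgpra1 and Mrgpra2a on. The counts of olfactory and bitter taste receptors rested on replicate 2, without which 414 and 26 of them lay in stretches.

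Families that make secreted proteins of liver, glands, gut and placenta often lay in a single stretch. Major urinary proteins, pheromone carriers from the liver, numbered 20 of 22 (90.9%) in chr4:60020490-62177405, with Mup7, Mup2 and Mup8 first. Secretoglobins, with the androgen-binding proteins of saliva, numbered 30 of 40 (75%) in chr7:31208417-33858078, from Scgb2b1, Scgb1b2 and Scgb2b2. Exocrine secreted peptides numbered 8 of 15 in chr17:37618324-39843049, with Esp36, Esp34 and Esp31, and without replicate 2 all 15 lay in a stretch. Placental hormones of the prolactin family numbered 21 of 25 (84%) in chr13:27110620-28545348, with Prl3d2, Prl3d3 and Prl3c1. All 13 pregnancy-specific glycoproteins, with Psg16, Psg29 and Psg18 first, lay in chr7:17056211-18873475 together with 6 of the 7 Ceacam genes inside, beginning with Ceacam3, Ceacam5 and Ceacam14. All 14 Pate genes, expressed in testis and prostate, lay in chr9:35570517-36726559, with Pate4, Pate2 and Pate3. The Reg lectins of gut and pancreas numbered 6 of 7 in chr6:77335874-79818251, with Reg3b, Reg3d and Reg3a.

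Antimicrobial peptides and germline families were also found in arrays. All 28 alpha-defensins, the peptides of Paneth cells, lay in chr8:20882517-22006575 (1.12 Mb), with Defa21, Defa23 and Defa35 first. Beta-defensins of epithelia numbered 12 of 42 (28.6%), 10 of them in the same stretch, with Defb33, Defb1 and Defb50. Members of the Prame family, expressed in germ cells and early embryos, numbered 41 of 49 (83.7%) in 3 stretches, with 21 in chr4:143413081-144737312 beginning with Oog4, Pramel20 and Pramel21. That stretch also held 5 of 11 arylacetamide deacetylase genes, Aadacl3, Aadacl4fm1 and Aadacl4fm2 first. All 6 oocyte homeobox genes, with Obox7, Obox2 and Obox1, shared chr7:13339454-15897481 with 8 of 21 sulfotransferases, among them Sult2a5, Sult2a2 and Sult2a1. Without replicate 2 the sulfotransferases inside numbered 13. The Nlrp genes, which encode NACHT-domain proteins of oocytes and of inflammasomes, numbered 7 of 18 in 4 stretches, with Nlrp9b, Nlrp4e and Nlrp5 in the stretch of the Vmn1r array. Cytochrome P450 genes, which oxidise drugs and steroids, numbered 19 of 99 (19.2%), with 13 in chr19:38982210-40119811 from Cyp2c55, Cyp2c65 and Cyp2c66. Organic anion transporters of the Slco family numbered 7 of 14, with Slco1c1, Slco1b2 and Slco1a4 in chr6:140817021-142345485.

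Some clustered families had few or no members in stretches of this length. Zinc finger genes, which lie in large arrays, numbered 9 of 415 (2.17%), of which Zscan4b, Zscan4c and Zscan4d lay in chr7:10139401-12010421. Without replicate 2 they numbered 18. None of 112 keratin and keratin-associated genes, 62 serpins, 27 kallikreins, 12 Spink genes or 10 Speer genes lay in a stretch of 1 Mb. The limit of 1 Mb bears on these counts. In peak-free intervals of 0.5 to 1 Mb lay 55 of the keratin genes, 26 of the serpins and 6 of the Speer genes. The same intervals held 0 of the kallikreins, 1 of the Spink genes and 14 of the zinc finger genes. Of all 20661 coding genes, 1223 lay in them. Predicted genes, named by a number or as Rik, numbered 129 of 1490 (8.66%).

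**Figure D4:**
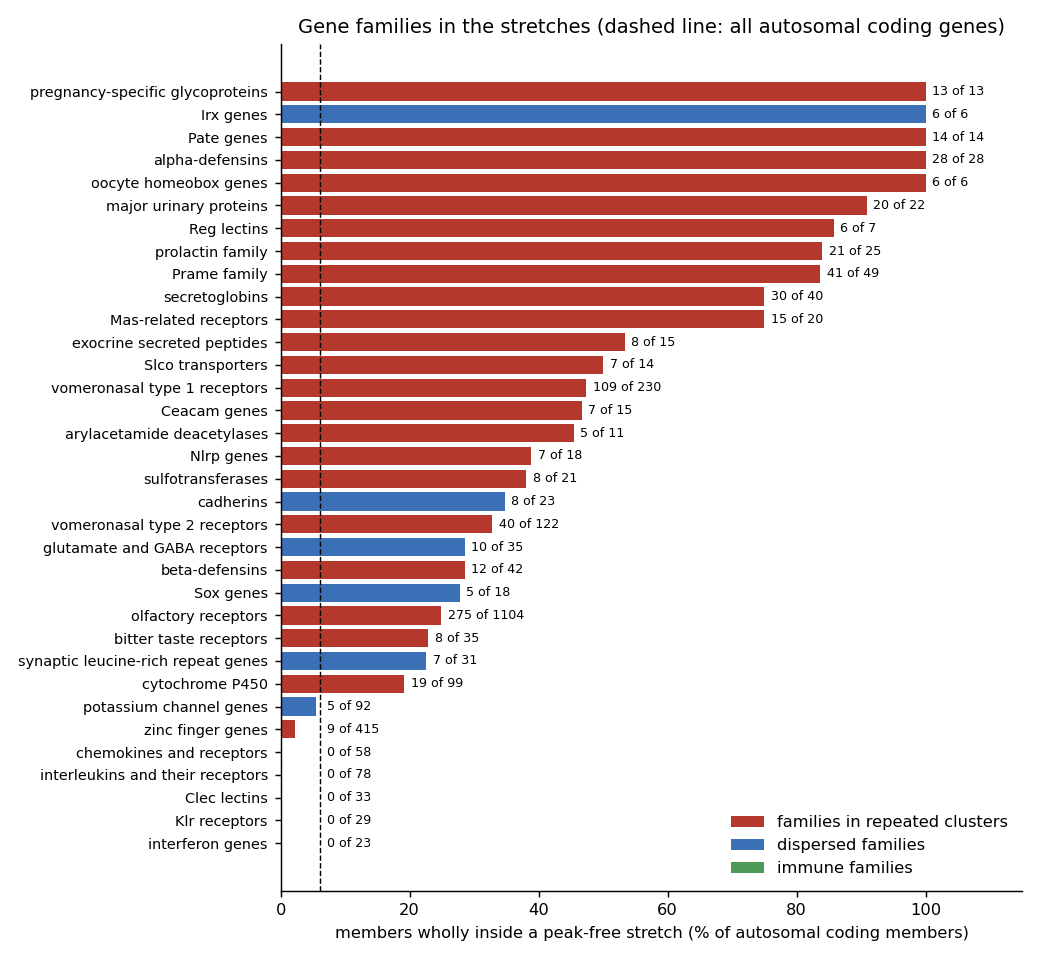
Bars give the percentage of each family's autosomal coding members that lay wholly inside a stretch (horizontal), for families with 5 or more members inside and for the immune families, with the count beside each bar. The dashed line is the 6.12% of all autosomal coding genes, and the 5 immune families have 0 members inside.

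Families of the nervous system and of development, whose members are mostly not in arrays, differed in their share inside. Cadherins, adhesion proteins of the cell surface, numbered 8 of 23 (34.8%) in 7 stretches, with Cdh26 and Cdh4 together in chr2:178023319-179916965. Protocadherins, with Pcdh8 and Pcdh17 in the longest stretch, numbered 4 of 67 (5.97%), close to the 6.12% of all coding genes. A further 28 lay in intervals of 0.5 to 1 Mb, which held 1223 of all 20661 coding genes. Synaptic leucine-rich repeat genes numbered 7 of 31, with Slitrk6 and Slitrk5 in chr14:110421607-111833022. Glutamate and GABA receptor genes numbered 10 of 35 (28.6%). Sodium channel genes numbered 3 of 14, and Scn1a, Scn9a and Scn7a shared chr2:66257113-68382643. Potassium channel genes were at 5 of 92 (5.43%), close to the background, with Kcnj3 in chr2:53851119-56304986, and numbered 11 without replicate 2. All 6 Irx genes, homeobox factors of patterning, were inside: Irx3, Irx5 and Irx6 in chr8:91551195-92689775 and Irx1, Irx2 and Irx4 in chr13:71006356-73305845. Sox genes numbered 5 of 18, among them Sox17 in chr1:3446152-4764598 and Sox2 (chr3:34649995-34652461), which was alone in chr3:34081477-35688861 (1.61 Mb). T-box genes numbered 2 of 14, and Tbx3 and Tbx5 shared chr5:119059072-120088706. Fox genes numbered 2 of 43 (4.65%). Other homeobox genes numbered 2 of 118 (1.69%).

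Gene length separated these groups. The median length of all coding genes was 17.5 kb. Members of duplicated families inside stretches had a median of 1.08 kb. The 423 genes inside that were neither duplicated nor predicted had a median of 68.8 kb, against 22.0 kb for their counterparts on all autosomes. Of these 423, 50 (11.8%) reached 500 kb, against 1.26%. Among the 10 longest genes inside were Ptprd (2271 kb), a receptor phosphatase of synapses, Nrxn3 (1612 kb), a neurexin, Gpc5 (1433 kb), a glypican, Tenm3 (1297 kb), a teneurin, Lingo2 (1255 kb), Kcnip4 (1136 kb), Dab1 (1125 kb), a reelin adaptor, Nrg3 (1108 kb) and Dcc (1098 kb), the netrin receptor. A long gene has less chance to fit wholly between peaks, so these counts leave out long genes that extend over an edge. In 4 cases a stretch lay under a single longer gene, which were Macrod2, Cntnap2, Dlg2 and Lsamp.

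The 50 stretches without a coding base had a median length of 1.27 Mb. The longest was chr14:111833204-115017772 (3.18 Mb), followed by chr10:46109145-48543399 (2.43 Mb) and chr17:59766822-62058180 (2.29 Mb). Its left flank was found in both replicates (6.56 with 10 reads and 8.78 with 19 reads) and its right flank in replicate 2 alone (7.90, 17 reads). Each of the 50 held at least 1 pseudogene or non-coding gene, with a median of 5.5 and at most 17. Over all 333 stretches, pseudogenes were inside in 19.9% of cases (1771 of 8884), long non-coding RNA genes in 10.7% (1326 of 12408) and microRNA genes in 6.78% (77 of 1136), whereas tRNA genes were inside in 2.56% (10 of 391).

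Promoter sequence was not used to draw the stretches, but the rule for genes inside leaves out every gene with a peak on it. The RefSeq table held a promoter for 1038 of the 1259 coding genes inside (82.4%), chromosome 18 left out. Their median CpG observed/expected ratio was 0.174, against 0.597 for all autosomal genes in the table and 0.626 for those outside. A ratio of 0.6 or more was found in 12.9% of the promoters inside and 49.8% of all. Genes outside that were neither duplicated nor predicted were split by a region of both replicates within 1 kb of an end. Such a ratio was found in 77.9% of those with a region and 33.4% of those without. The contrast of inside with outside thus includes one of genes without and with peaks, and the part of each was not tested. The median GC content was 41.3% inside and 56.7% over all. The letters TATAAA on either strand were found in 32.9% inside and 13.5% over all. Pooled over all duplicated families the median ratio was 0.115 inside and 0.160 outside, the median GC content 36.7% and 41.3%, and the share with TATAAA 43.6% and 30.5%. The pools inside and outside differ in their families, with 9 of 415 zinc finger genes and 0 of 112 keratin genes inside. These values therefore do not compare members of the same family, and the part of the mix of families was not tested. For the 417 genes inside that were neither duplicated nor predicted the table held a promoter for 76.5%, under the 80% required, and no median is given.

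**Figure D5:**
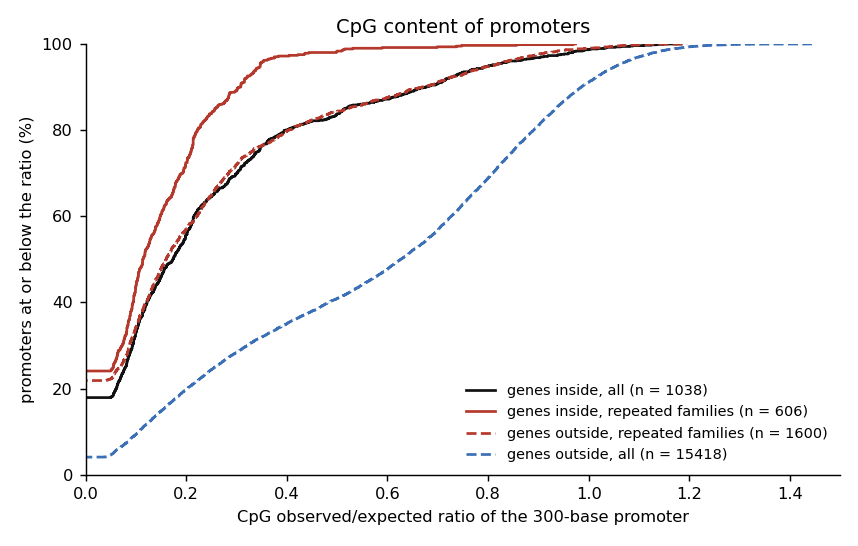
Curves give the cumulative percentage of promoters (vertical) at or below a CpG observed/expected ratio (horizontal) for genes inside stretches (solid) and outside (dashed), over all genes and over duplicated families (red). The median of all genes inside is 0.174 and that of all genes outside is 0.626, against 0.115 and 0.160 for the pooled members of duplicated families.

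Duplicated sequence bears on whether reads can be placed. A promoter was counted as copied when it shared a word of 50 bases, simple repeats apart, with the promoter of another gene. This held for 31.4% of the promoters inside and 7.95% of all. Pooled over all duplicated families it held for 40.9% inside and 18.3% outside, and these pools too differ in their families. The share varied between families inside. It was 80.6% for the vomeronasal type 1 receptors (83 of 103), 80.6% for the type 2 receptors (29 of 36), 70.8% for the secretoglobins and 65.7% for the Prame family, but 15.5% for the olfactory receptors (36 of 233) and 16.7% for the prolactin family. The promoters of Rsad2, Cmpk2, Ifi44, Ifi44l and Sox11 shared no such word. The part of unplaced reads in the missing peaks was not tested, and neither were gaps in the assembly.

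The labelled cell type was checked against marker genes by the share with a region of both replicates within 1 kb of an end, which was 48.9% over all coding genes. It was 9 of 14 for markers of CD8-positive (type 1) dendritic cells, 3 of 5 for plasmacytoid dendritic cells, 2 of 6 for B cells, 1 of 6 for T cells, 0 of 6 for neutrophils and 1 of 5 for erythroid cells. Of the 14, Batf3, Cd8a, Clec9a and Zbtb46 had a peak of 1 replicate within 1 kb of an end, and Itgae had none. None of these marker genes lay in a stretch.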

How the data were processed

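The stretches rest on the peak lists of 2 ATAC-seq samples of unstimulated cells, 1 group of 2 replicates. Per the submitters' processing notes the tools were MACS2, HOMER (4.9.1), Picard (2.8.1), BWA (0.7.17) and Trimmomatic, with mm10 as build, and their roles are not told. Thresholds, the shift of reads for the transposase and the handling of duplicates and repeats are not given in the sources used here, and each can change which weak peaks are listed. Peaks were called on each replicate separately, and the numbering is unbroken (50950 peaks in replicate 1, 58319 in replicate 2). The deposited score is 10 times the −log10 q, cut to a whole number. The fold enrichment, a ratio of reads at the summit to local background, and the −log10 p and −log10 q are the authors' values and served to describe peaks within a list. The lowest −log10 q listed by the authors was 3.00 in both. Library totals are not given, so depth is known only as reads at summits, which were recovered from the fold and the p. The fewest were 7 in replicate 1 and 9 in replicate 2, and their number limits the precision.

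Summits of one peak were joined, the lists were merged, and intervals of 1 Mb or more between consecutive regions were kept. DNA before the first and after the last region of a chromosome was not counted. Gene positions are those of RefSeq on GRCm38.p6, whose chromosomes mm10 shares. A gene was inside when all its bases were. A region was of both replicates when peaks overlapped by at least 1 bp. Promoters with no entry in the table were left out, as were words of 50 bases with under 16 distinct triplets when copies were counted. Named were the 10 longest stretches, the 3 with most coding genes, the longest without any, the 3 on each side of 1 Mb, every coding gene of the Rsad2 stretch, listed genes inside, the 10 longest genes inside and, for each family with 5 or more members inside, its main stretch and first 3 members. A few genes under this rule are not reported here. Genes outside this rule are said to be chosen after their values were seen, or stand as examples of a family. The members and lists were chosen with earlier results of these data known. Python 3.11.15, numpy 2.4.6, scipy 1.17.1, pandas 2.3.3 and matplotlib 3.10.9 were used, and the interval and read recovery steps were tested on simulated data. With 1 group no test was made. The alternatives were 1 replicate alone, regions of both replicates, the better-scoring 50% of each list, summits in place of edges, minimum lengths of 0.5 and 2 Mb, and other rules for genes.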

Additional observations from a re-analysis of the deposited data

How the results depend on the processing

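No paired analysis was possible because files were used for 1 group only and no result comes from a test. With 1 replicate alone the stretches numbered 336 to 400, their total length was 549 to 683 Mb, coding genes inside numbered 1279 to 1743, the share without a coding gene was 24.75% to 29.2%, the stretch around Rsad2 and Cmpk2 measured 2.35 to 2.48 Mb, and the median CpG ratio was 0.172 to 0.175. The higher lengths and counts came from leaving out replicate 2, which had the longer list. With regions of both replicates only, the total length was 695 Mb, the share without a coding gene 24.6%, the Rsad2 stretch 2.68 Mb and the CpG ratio 0.169. With the better-scoring 50% of each list these were 707 Mb, 24.6% and 2.68 Mb, and 1903 coding genes were inside. With a minimum length of 0.5 Mb there were 835 stretches of 892 Mb with 2488 coding genes, 38.8% without one, and a CpG ratio of 0.170. With 2 Mb there were 69 of 185 Mb with 421, 13.0% and 0.185. The share without a coding gene was 15.02% when no coding base was allowed and 0% when genes of every type counted. Without copied promoters the CpG ratio was 0.210. The alternative that leaves out duplicated families gave no CpG value, because under 80% of the remaining genes had a promoter in the table. Summits in place of edges gave 333 stretches of 542 Mb. The causes of these shifts were not tested beyond what each setting does by construction. Of 31 counts of families, lists and single groups inside, 6 rose by over 1.5 times without replicate 2, 6 with regions of both replicates only, 7 with the better-scoring 50%, and 11 with 0.5 Mb, 21 fell by over 1.5 times with 2 Mb, and 0 moved so far without replicate 1 or with summits. The interferon-stimulated genes inside stayed at 4 of 59 under every setting that redrew the stretches. All coding genes inside meanwhile ranged from 421 (2 Mb) to 2488 (0.5 Mb) of 20661. The constant count is thus not a constant standing against the background. The limits are 2 libraries of 1 condition, no reads to separate silent from unmappable DNA, and a rule that reads weak single-replicate peaks as ends.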
